A study of Mus musculus with 2 samples.

Results

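The 10 immediate early genes Fos, Fosb, Jun, Junb, Jund, Egr1, Atf3, Ier2, Ier3 and Zfp36 were followed across single cells of mouse melanoma tumors. They were chosen by gene symbol from the 32285 genes of the deposited feature list, and all 10 were found there. They were read in barcodes with at least 5000 gene UMIs and a mitochondrial share of at most 15%. A UMI (unique molecular identifier) stands for 1 captured transcript. The tumors were grown from NMM, a mouse melanoma line with mutated NRAS, in Rag-/- mice, which lack T and B cells of their own. Conditions in the labels number 3, with 6 tumors in each: Mix PBS, the control, Mix + T, and Ag-GAS + T, where T stands for T cells per the design text. The sources used here give no age, dose or time. Each tumor was minced, digested enzymatically and stained with hashtag antibodies (antibodies carrying a DNA tag that is read with the RNA), and CFP+ bystander tumor cells were sorted from the pool.

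All 18 tumors were pooled into 1 gene expression library with 1 matching hashtag library, so the data are 1 sample without replicates. The labels tie no hashtag to a condition, and no comparison between the 3 conditions was made and no p-value was computed. Of 20917 barcodes, 1657 passed the rule. Of these, 266 carried 3 or more hashtags and were left out as doublets, leaving 1391 cells with a median of 44559 gene UMIs (5049 to 176379). Cells carried hashtags in pairs: 1349 cells fell into 18 of the 45 possible pairs, with 19 to 210 cells each (median 74.5). The number of pairs equals that of the tumors, and each pair is read here as 1 tumor of unstated condition, which the labels do not state. The melanoma label was checked against 10 melanocyte lineage markers: Tyr and Tyrp1 had 0 UMIs, Pax3 was at 32.5 CPM (UMIs per 1000000 gene UMIs), and 2 of the 10 were found in 10% of cells or more. Markers of fibroblasts summed to 1229 CPM, of which Col3a1 gave 751, and those of T cells to 0.324 CPM, with Cd3e, Cd3g, Cd8a and Cd2 at 0.

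Immediate early genes are switched on within minutes of a stimulus by factors already present in the cell, without new protein being made. Growth factor signalling through RAS and the MAP kinases is a classical trigger, and stress and the dissociation of tissue are others. Fos and Jun family proteins pair to form the transcription factor AP-1, Egr1 is a zinc finger transcription factor, and Zfp36 (tristetraprolin) binds AU-rich mRNAs, several of these genes' own among them, and promotes their decay. All tumors went through the same digestion, so transcripts present in the tumor and transcripts made during digestion cannot be told apart.

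In the 1391 cells the 10 genes together made up 1271 CPM (95% exact Poisson interval 1262 to 1280), and Ier3, Jun and Junb gave most of it. Counting is at the 3' end, 1 count per transcript and not per length, so levels of different genes can be set side by side. Intervals cover counting error in this 1 pool only.

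The Jun family was high and found in nearly every cell. Jun, the founding partner of Fos in AP-1, was at 262 CPM (259 to 266) with a UMI in 94.0% of cells. Junb, a relative that can also restrain Jun, was at 208 CPM (205 to 212) and was found in 94.9% of cells. Jund, the member of the family known for steady expression, was at 130 CPM (128 to 133) in 92.0% of cells. The intervals of the 3 genes did not overlap.

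The Fos family was lower and uneven. Fos was at 44.3 CPM (42.7 to 45.9) and had a UMI in 37.4% of cells (Clopper-Pearson interval 34.8 to 40.0). Fosb was at 47.3 CPM (45.6 to 49.0) in 39.5% of cells. Their levels thus lay close together and far below those of the Jun family.

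Egr1 was at 98.5 CPM (96.1 to 101) and was found in 68.2% of cells. Atf3, a stress-induced factor of the ATF family that can pair with Jun proteins, was the lowest at 9.95 CPM (9.20 to 10.8), with a UMI in 12.5% of cells. Ier2, a small nuclear immediate early protein, was at 76.9 CPM (74.8 to 79.1) in 82.3% of cells. Ier3, an immediate early protein linked to cell survival, was the highest at 371 CPM (366 to 375) in 90.4% of cells. Zfp36 was at 22.4 CPM (21.3 to 23.6) in 48.2% of cells.

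The order from high to low was Ier3, Jun, Junb, Jund, Egr1, Ier2, Fosb, Fos, Zfp36 and Atf3. Each neighbouring interval in this order was separate from the next except those of Fosb and Fos, which overlapped.

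**Figure D1:**
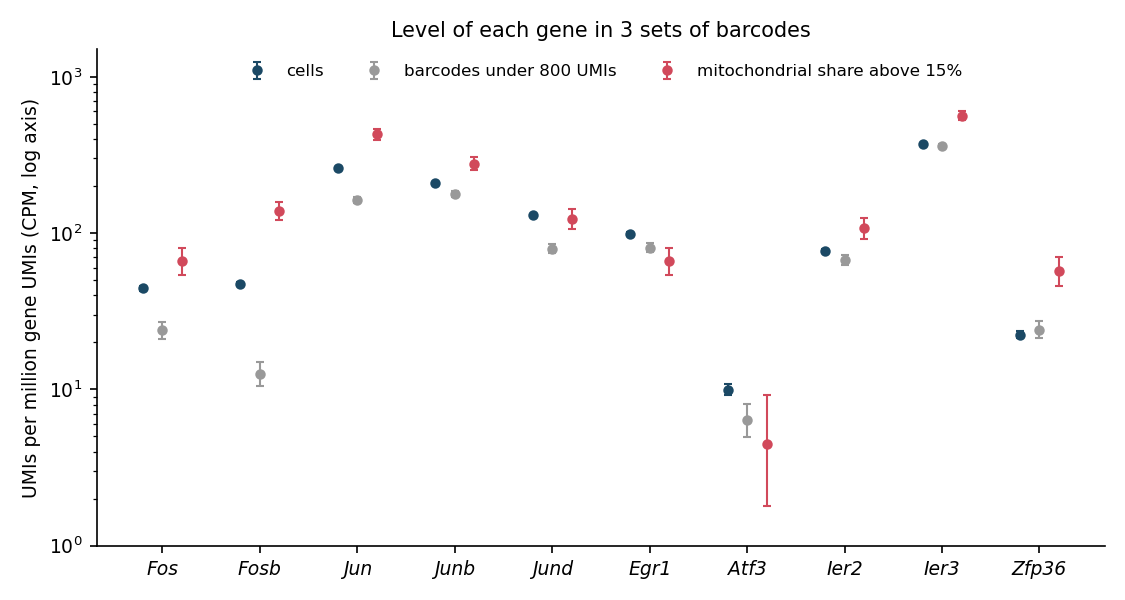
Level of each gene (CPM, log axis) in the cells, in barcodes under 800 UMIs and in barcodes with a mitochondrial share above 15%; bars are 95% exact Poisson intervals. Fosb separates the 3 sets most clearly, at 47.3, 12.6 and 139 CPM, while Ier3 is nearly level between cells (371 CPM) and the low barcodes (360 CPM).

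The 18473 barcodes under 800 UMIs, with a median of 569 UMIs, were taken to stand for RNA outside cells. Whether they also hold broken or shallow cells was not tested. There the 10 genes summed to 995 CPM, against 1271 CPM in cells. Among genes of at least 20 CPM, 14.1% were at least 1.5 times as high in cells as in these barcodes, and 4 of the 9 members that pass this level were, Fosb, Fos, Jund and Jun. Atf3 was under 20 CPM.

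Fosb stood farthest above the low barcodes, at 3.75 times their level (3.16 to 4.49). Fos was 1.85 times as high in cells (1.63 to 2.11), Jund 1.64 times (1.53 to 1.76) and Jun 1.61 times (1.54 to 1.70). Ier3 was at 1.03 times (0.996 to 1.07) and Zfp36 at 0.931 times (0.815 to 1.07), and both intervals include equal levels. The median over all genes of at least 20 CPM was 1.13 times, so a ratio near 1 was usual. The ratio compares the make-up of the RNA and does not say where the UMIs in a cell came from.

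A further 199 barcodes had at least 5000 UMIs but a mitochondrial share above 15%, a sign of damaged cells, and were not among the cells used. Of all genes of at least 20 CPM in cells, 20.9% were at least 1.5 times as high in these barcodes, and 4 of 9 members were, Fosb, Zfp36, Jun and Ier3. Fosb was at 139 CPM there, 2.94 times its level in cells (2.55 to 3.38), and Zfp36 at 56.8 CPM, 2.53 times (2.02 to 3.14). Egr1 went the other way, at 66.3 CPM or 0.673 times (0.549 to 0.817), and so did Atf3, at 0.449 times (0.180 to 0.930) on 7 UMIs. The median over all genes of at least 20 CPM was 0.870 times. CPM counts mitochondrial UMIs in the total, a median of 25.7% in these barcodes and 2.68% in cells. This lowers the other genes here, and its part in each ratio was not tested.

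To compare cells of unequal depth, each was thinned without replacement to 20000 UMIs, which kept 1268 cells and left out 123 that were too shallow. Unthinned shares are those given above. After thinning, Fos had a UMI in 27.6% of cells, Fosb in 28.9% and Zfp36 in 29.3%, against 89.4% for Jun, 88.8% for Junb and 83.7% for Jund. Egr1 had a UMI in 56.7%, Ier2 in 66.1%, Ier3 in 83.0% and Atf3 in 8.36%.

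A few cells held much of the Fos and Fosb RNA. The 64 thinned cells richest in Fos held 60.2% of its UMIs, and the 64 richest in Fosb held 53.04%, with up to 46 and 41 UMIs in a cell while the median cell had 0 of either. For Atf3 the richest 64 cells held 82.9% of the UMIs, but its level was so low that this rests on few counts. The same share was 36.8% for Egr1 and 38.9% for Zfp36. It was 20.4% for Junb, 21.7% for Jund, 23.6% for Jun and 24.0% for Ier2, the lowest shares of the 10, and 30.7% for Ier3. Counting noise alone raises this share in genes with few UMIs. The shares thus mix level with unevenness, and no expected share was computed.

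Counting noise alone gives a variance close to the mean. Across all genes found in at least 5% of thinned cells, 10.3% had a variance at least 2 times the mean, with a median ratio of 1.15. All 10 members passed that size, with a median of 6.57. Ier3 had the largest ratio, 17.3, followed by Egr1 at 13.4 and Fos at 10.5, and Zfp36 had the smallest at 2.12. This ratio rises with the level of a gene, so it does not rank the 10 genes by unevenness.

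**Figure D2:**
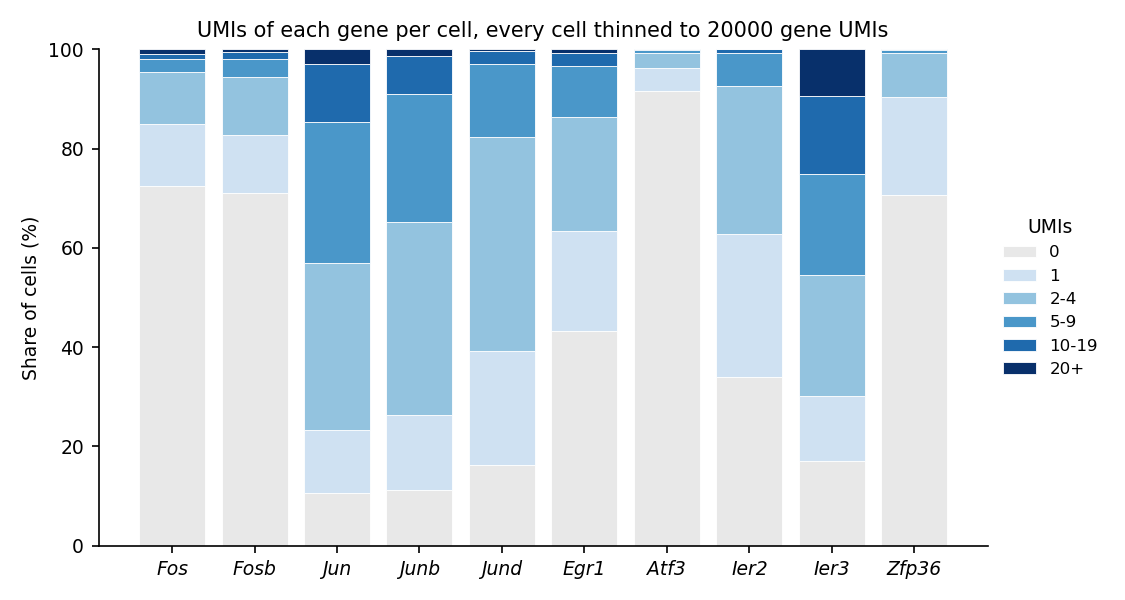
Share of the 1268 thinned cells (%) with 0, 1, 2-4, 5-9, 10-19 or 20 and more UMIs of each gene. Fos and Fosb have no UMI in 72.4% and 71.1% of cells yet reach 20 or more in 1.03% and 0.473%, whereas Jun and Junb are missing from 10.6% and 11.2% of cells.

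Across the 18 hashtag pairs the summed level of the 10 genes ran from 882 CPM (HTO6 and HTO10, 77 cells) through a median of 1235 to 2507 CPM (HTO2 and HTO5, 35 cells). The mean was 1308 ± 386 CPM (SD, n = 18 pairs). The highest pair stood at 2.84 times the lowest, and the next highest, HTO3 and HTO6, at 1.93 times. The size of this span depends on how hashtags were called: with 11 other cutoffs it lay between 2.09 and 2.91 times, the cutoff used here giving a value near the top of that range. HTO2 and HTO5 was the highest pair under 9 of those 11, and HTO1 and HTO2 under the remaining 2.

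Of the 9 members with a highest to lowest span, Fos and Fosb had the widest. Fos ran from 13.5 CPM (HTO6 and HTO10) through a median of 30.3 to 227 CPM (HTO2 and HTO5), a span of 16.9 times. HTO1 and HTO2 came second at 153 CPM and HTO3 and HTO6 followed at 117 CPM, and the other 15 pairs lay at or under 73.0 CPM. Fosb ran from 5.94 CPM (HTO3 and HTO6, on 8 UMIs) through a median of 43.4 to 104 CPM (HTO2 and HTO5), a span of 17.6 times that rests on those 8 UMIs, since the next lowest pair was at 12.9 CPM.

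Fos and Fosb parted in HTO3 and HTO6. That pair was among the top 3 for Fos and highest for Egr1, but lowest for Fosb, with a counting interval of 2.56 to 11.7 CPM. The interval leaves out the spread between its 29 cells, and Fosb is uneven from cell to cell. Whether Fosb is low in that pair beyond this spread was not tested.

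Egr1 ran from 43.1 CPM (HTO1 and HTO3) through a median of 80.5 to 266 CPM (HTO3 and HTO6), a span of 6.18 times. HTO1 and HTO2 was next at 201 CPM and HTO2 and HTO5 followed at 177 CPM. The 3 pairs highest in Egr1 were thus also the 3 highest in Fos.

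The Jun family varied less. Jun ran from 178 through a median of 261 to 395 CPM, a span of 2.22 times. Junb ran from 155 through 205 to 360 CPM, and Jund from 91.6 through 128 to 240 CPM. For Junb and Jund the span depended on HTO2 and HTO5: without that pair it fell from 2.32 to 1.70 times for Junb and from 2.62 to 1.68 times for Jund.

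Ier2 had the narrowest span of the 9 members with one, from 61.2 through 76.2 to 130 CPM, or 2.12 times. Ier3 ran from 194 through 375 to 783 CPM, a span of 4.04 times. Zfp36 ran from 12.03 through 23.1 to 47.7 CPM, a span of 3.97 times. Atf3 ran from 0 UMIs in HTO3 and HTO7, which allows up to 3.29 CPM, through a median of 6.50 to 45.7 CPM in HTO2 and HTO5. Its coefficient of variation over pairs, 109%, was the largest of the 10, ahead of 103% for Fos and 62.2% for Fosb.

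Over all genes of at least 20 CPM, 23.7% had a highest pair at least 2 times the lowest, with a median span of 1.66 times. All 9 members at that level passed, with a median of 3.97 times. Small pairs widen such spans through counting error. With only the 11 pairs of at least 50 cells, 6 of 9 members passed beside 9.05% of all genes, and without HTO2 and HTO5 it was 7 of 9 beside 22.0%.

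HTO2 and HTO5, singled out by the sum of these same genes, was highest for 8 of the 10 genes and among the top 3 for all 10. These counts follow in part from that choice, and how often this pair of 35 cells is highest over all genes was not counted. It also had the deepest cells (median 52216 UMIs, against 35930 to 47136 in the others), the highest G2/M list (3427 CPM), the highest endothelial marker list (72.7 CPM) and the lowest fibroblast list (874 CPM). Its macrophage markers summed to 7.89 CPM, among the top 3 of the pairs (median 2.19), of which HTO5 and HTO7 was highest at 61.9 CPM. The part of these in the result was not tested. The level was not carried by single cells: without the 3 richest cells of each pair it was 2106 CPM, against at most 1513 CPM elsewhere, and its median cell was at 1934 CPM, against at most 1538 CPM elsewhere.

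**Figure D3:**
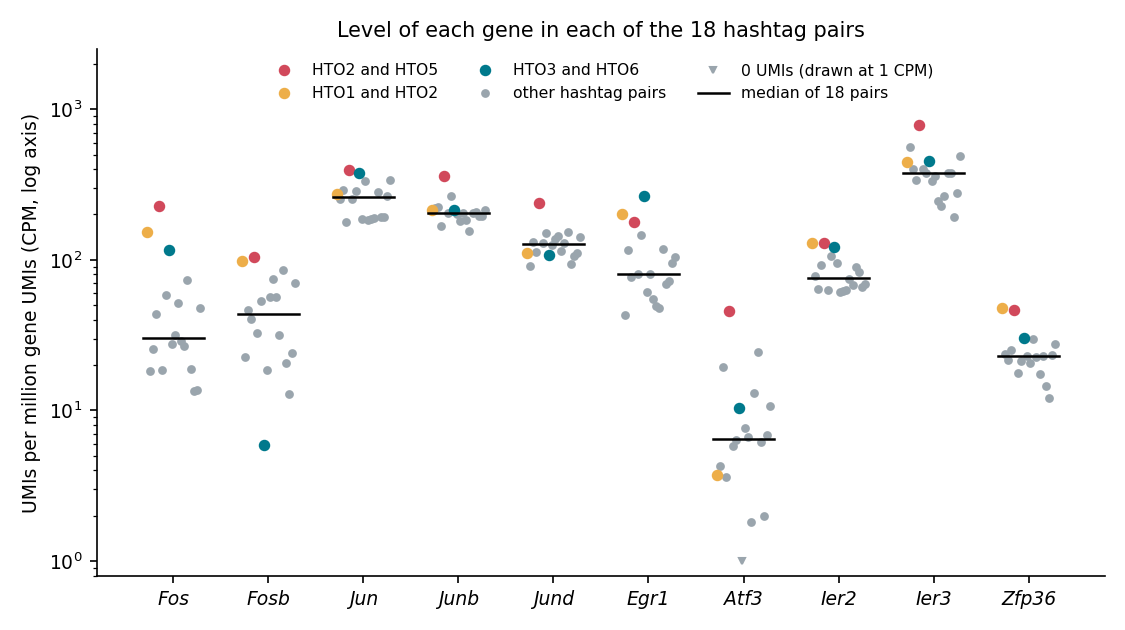
Level of each gene (CPM, log axis) in each of the 18 hashtag pairs, with the median as a line and 3 pairs in colour. HTO2 and HTO5, the pair with the highest sum of these genes, is highest for 8 of the 10. HTO3 and HTO6 is highest for Egr1 at 266 CPM but lowest for Fosb at 5.94 CPM.

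Within pairs, the 10 genes varied together from cell to cell. Pearson's r was taken over 1228 thinned cells on log-normalized values after the mean of each hashtag pair was subtracted; the cells share 1 library, and r is a description with no p. All 45 r values among the 10 genes were positive, with a median of 0.211 and a range of 0.0384 (Fosb and Ier3) to 0.524 (Fos and Fosb), and 25 reached 0.2. The matching shares over pairs of other genes are not given here, so how usual these counts are was not tested. The r of Fos and Fosb was positive within 16 of 16 pairs with at least 20 such cells.

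Egr1 and Fos each reached an r of 0.2 with 8 of the other 9 members. For Egr1 r was 0.356 with Junb, 0.352 with Ier2, 0.349 with Fos, 0.348 with Jun and 0.323 with Zfp36. Atf3 reached it with 3, Jund (0.224), Ier3 (0.210) and Fos (0.203). Fosb reached it with 4, Fos, Jund (0.276), Jun (0.225) and Egr1 (0.215), with 0.0854 for Ier2 and 0.0825 for Junb. Junb, Ier2 and Ier3 formed another group, with r of 0.352 for Junb and Ier3, 0.310 for Junb and Ier2 and 0.305 for Ier2 and Ier3. Jun and Junb, though of the same family, had an r of 0.145.

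**Figure D4:**
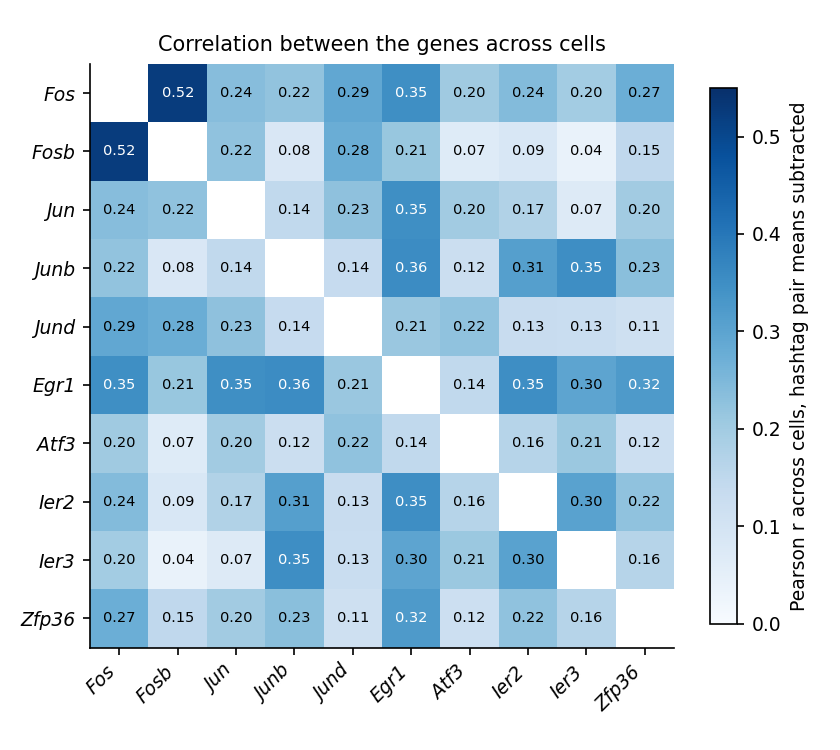
Pearson's r between each pair of the 10 genes over 1228 thinned cells, with hashtag pair means subtracted. The darkest cell is Fos and Fosb at 0.52, and the row of Egr1 is the darkest row overall.

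The 250 bases upstream of the start of 3 genes are shown. They set Fos and Fosb, the closest pair, beside Junb, whose r was 0.221 with Fos and 0.0825 with Fosb. The sequences are from RefSeq on GRCm38.p6, whose table held 8 of the 10 genes, all but Egr1 and Ier2. They run 5′ to 3′ on the strand of the gene. Capitals mark TGACG (the core of the cyclic AMP response element), GCGGGGGCG (an EGR site) and the TATA box motif, spelled TATAAA.
Fos, chr12:85473640-85473889, plus strand: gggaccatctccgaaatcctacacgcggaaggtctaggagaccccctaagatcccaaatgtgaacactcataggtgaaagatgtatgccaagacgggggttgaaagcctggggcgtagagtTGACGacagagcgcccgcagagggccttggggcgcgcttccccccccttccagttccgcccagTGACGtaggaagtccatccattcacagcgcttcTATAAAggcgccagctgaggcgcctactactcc
Fosb, chr7:19310046-19310295, minus strand: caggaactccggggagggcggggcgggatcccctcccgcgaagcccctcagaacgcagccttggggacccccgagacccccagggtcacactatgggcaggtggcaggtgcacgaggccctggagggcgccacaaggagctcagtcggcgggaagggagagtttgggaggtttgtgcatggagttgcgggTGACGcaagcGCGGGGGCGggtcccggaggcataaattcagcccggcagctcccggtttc
Junb, chr8:84978749-84978998, minus strand: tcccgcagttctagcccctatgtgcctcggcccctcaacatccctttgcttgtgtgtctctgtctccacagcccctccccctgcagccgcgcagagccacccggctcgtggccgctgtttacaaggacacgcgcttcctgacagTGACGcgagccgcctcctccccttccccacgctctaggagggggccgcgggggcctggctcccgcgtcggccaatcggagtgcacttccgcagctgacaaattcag

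In these windows Fos held TGACG at both -129 and -66 and TATAAA at -33, counted from the start site. Fosb held TGACG at -60 and GCGGGGGCG at -50, and Junb held TGACG at -106. Of the 8 windows, 4 held TGACG on either strand (Fos, Fosb, Junb and Atf3), against 17.9% of 27025 RefSeq windows of the same length. GCGGGGGCG was in 2 (Fosb and Zfp36), against 2.56%, and the CArG box, the site of serum response factor, was in Zfp36 only, as CCATAAAAGG at -58, against 1.40%. The full element TGACGTCA and the AP-1 site TGANTCA were in 0 of 8, against 1.62% and 6.87%. TATAAA was in Fos only, against 13.0%, and TTCNNNGAA, an interferon-gamma activated site, in Zfp36 only, against 7.18%. TGACGTCA holds TGACG within it. A match is a description of letters, not of binding. Bases beyond these 250, and the promoters of Egr1 and Ier2, were not searched, so a gene without a match may hold the site elsewhere. Start sites are those of RefSeq, and of the 8 genes only Fos and Jun have the same start in the GENCODE positions given below. For Fosb, Junb and Ier3 the start differs by less than the 250 bases searched, and for Jund, Atf3 and Zfp36 by more.

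Cells were also read by their Fos UMIs after thinning: 918 cells had 0, 291 had 1 to 4 and 59 had 5 or more, the last being 4.65% of cells and found in 15 of the 18 pairs. All 9 other members were higher in each step. The share of all genes that rise over these classes was not counted. The thinned cells are also those behind the r values with Fos above, all positive, so this is another view of the same link. Fosb went from 18.7 CPM (16.8 to 20.8) to 91.4 (83.8 to 99.5) and 317 CPM (286 to 351). Egr1 went from 71.4 to 164 and 410 CPM, and Jun from 231 to 319 and 659 CPM. Atf3 went from 5.83 to 14.9 and 43.2 CPM, on 51 UMIs in the last class.

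From cells without Fos to those with 5 or more, Fosb differed by 16.9 times, Atf3 by 7.42, Egr1 by 5.75 and Zfp36 by 4.58 times. Jun, Ier2, Jund and Ier3 differed by 2.85, 2.83, 2.65 and 2.63 times, and Junb by the least, 2.06 times. These cells pool all hashtag pairs, so differences between pairs enter here.

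The level of the genes differed with the depth of a cell. Summed members were at 1725 CPM in cells of 5000 to 20000 UMIs, and at 1528, 1290 and 1083 CPM in cells of up to 40000, up to 60000 and more UMIs. In thinned cells the mean of the 10 genes (the member score) had an r of -0.151 with the log of the UMIs before thinning, strongest for Egr1 (-0.192), and Atf3 (0.0184) did not share the sign. With the mitochondrial share there was no single direction. Summed members were at 1325, 1250 and 1195 CPM in cells with up to 2%, 2 to 4% and 4 to 8% mitochondrial UMIs, and at 1873 CPM in the 50 cells with 8 to 15%. In thinned cells the r of the score with this share was -0.0568, positive in 4 of 16 pairs. Against the score, 42 genes outside the 10 reached an r of 0.2. With depth regressed out 36 did, of which 32 were among the 42, and in cells with a mitochondrial share of at most 5% 46 did, of which 37 were.

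Genes outside the 10 were ranked by r with the member score. Of 10080 genes found in at least 5% of thinned cells, 42 (0.417%) reached 0.2 and 17 (0.169%) were at -0.2 or lower. Btg2, an antiproliferative immediate early gene, was highest at 0.466. It was followed by Klf6 (0.374), a zinc finger factor, Phlda1 (0.354), Errfi1 (0.330), a feedback inhibitor of the EGF receptor, and Nr4a1 (0.328), an orphan nuclear receptor. Tcim (0.313), Fosl2 (0.305), a further Fos family member, Csrnp1 (0.299), Ppp1r15a (0.298), which directs dephosphorylation of eIF2 alpha, Ereg (0.286), an EGF receptor ligand, Rhob (0.272) and Ccn1 (0.270) completed the 12 highest. Each of the 12 was positive in 12 to 16 of 16 pairs.

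The 6 lowest were Atp5g1 (-0.243), a subunit of ATP synthase, Hmgn1 (-0.235), a nucleosome-binding protein, Sumo2 (-0.233), Rbm3 (-0.222), an RNA-binding protein induced by cold, Nme1 (-0.222) and Chchd2 (-0.220). All 6 had a UMI in at least 98.1% of thinned cells. Cells are scaled to the same total, so the values of different genes are not free of each other, and the part of this was not tested.

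The lists of related genes fell into an order. Among other immediate early transcription factors 7 of 17 reached r of 0.2, Klf6, Nr4a1, Fosl2, Csrnp1, Klf4, Klf2 and Nr4a2, and 16 of 17 were positive (median 0.154). Among the list of feedback regulators 9 of 25 did, and 25 of 25 were positive (median 0.175). Highest were Btg2, Dusp1 (0.263), a phosphatase of MAP kinases, and Dusp6 (0.247), a phosphatase of ERK. Sgk1, Nfkbiz, Mcl1, Dusp2, Btg1 and Zfp36l1 were the others. The list is broad, and not all of its genes are known to end or limit the response. These 2 lists gave 16 of the 42 genes called, while they hold 42 of the 10080 tested. The median over all 10080 genes was -0.0029.

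The lists of targets, partners, MAPK output and upstream genes were linked less. Of AP-1 and EGR target genes 3 of 20 reached 0.2, Ereg, Ccn1 and Ptgs2 (0.235), the enzyme cyclooxygenase-2, with a median of 0.104. Of partners and repressors of AP-1 2 of 13 did, Cebpb (0.266) and Cebpd (0.210). Of MAPK output genes 2 of 12 did, Phlda1 and Dusp6. This list shares Dusp6, Spry2, Spry4, Dusp4 and Spred1 with the feedback regulators, and Fosl1 with the other immediate early factors, so the lists are not separate. Kinases and factors upstream, whose activity is set by phosphorylation more than by mRNA, gave 0 of 23 (median 0.0036).

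Beside the 0.417% of all genes that reached 0.2, counts of 0 or 1 in lists of this size say little about them. Of the unfolded protein and integrated stress list 1 of 16 reached 0.2, Ppp1r15a. Heat shock genes gave 0 of 12, with Hspa1b at 0.178 and the mitochondrial chaperones Hspe1 and Hspd1 at -0.194 and -0.180. The TNF and NF-kB, interferon-gamma, type I interferon, hypoxia and p53 lists gave 0 of 11, 0 of 19, 0 of 18, 0 of 16 and 0 of 11. As a mean score over its genes, the TNF and NF-kB list had an r of 0.144 with the score of the 10, positive in 15 of 16 pairs. S phase and G2/M genes gave 0 of 20 and 0 of 24, and none of them had a positive r (medians -0.0871 and -0.0745).

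**Figure D5:**
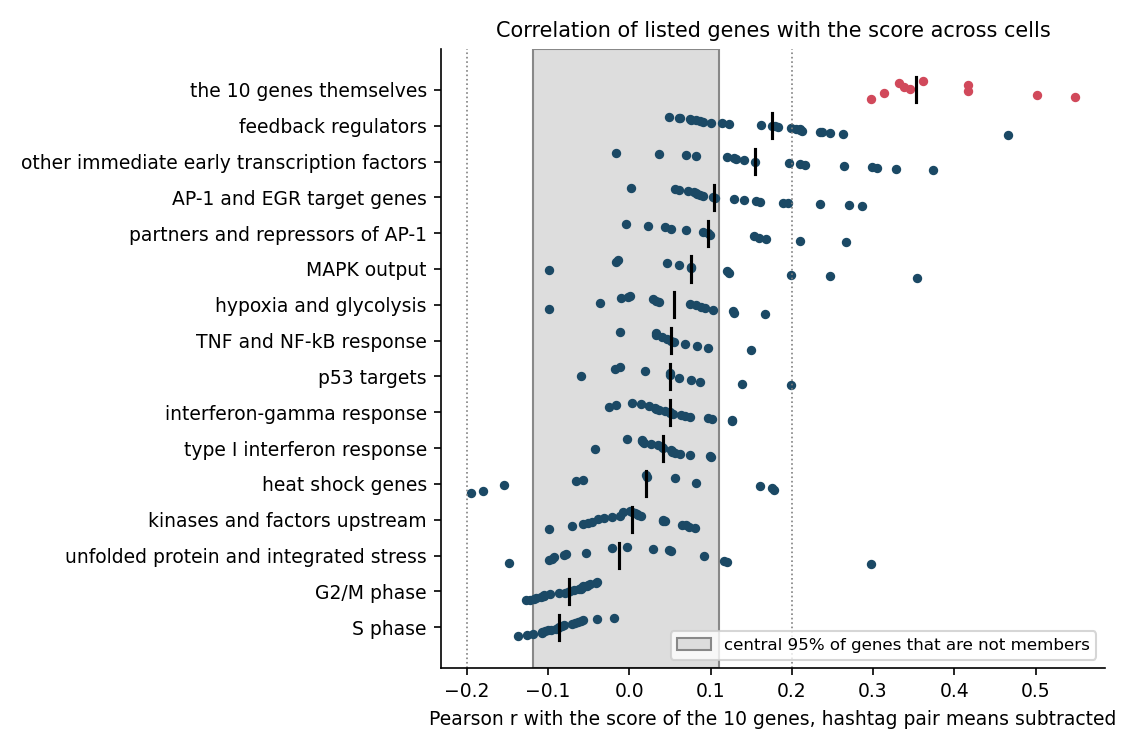
Pearson's r of each listed gene with the score of the 10 genes (dots; black lines are list medians; a member is left out of its own score), with dotted lines at 0.2 and -0.2 and the central 95% of all 10080 other genes, from -0.119 to 0.110, in grey. Feedback regulators and other immediate early factors lie highest below the 10 genes, and S phase and G2/M genes are all under 0.

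Members differed in which list they followed. Ier3 had an r of 0.295 with the hypoxia and glycolysis list, positive in 15 of 16 pairs, while the other 9 lay between -0.102 (Fosb) and 0.0787 (Ier2). In the 317 thinned cells highest for that list Ier3 was at 617 CPM, against 328 CPM in the 317 lowest, whereas Fosb was at 35.2 against 77.1 CPM. With the interferon-gamma list, Jun had an r of 0.180, positive in 13 of 16 pairs, Egr1 0.135 and Zfp36 0.131, each positive in 15 of 16, and Ier3 -0.0481 and Fosb -0.0332. With the MAPK output list Egr1 (0.29), Jun (0.24) and Ier3 (0.20) were highest and Fosb lowest (0.03).

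For each member the 2 genes most alike across the same 1228 cells were mostly other members. Outside the 10, Egr1 was closest to Nr4a1 (0.368) and Errfi1 (0.362), Atf3 to Klf6 (0.315) and Btg2 (0.273), and Jun had Rhob (0.278) second after Egr1. Ier3 was closest to Il11 (0.381), a cytokine of the interleukin-6 family, ahead of Junb (0.352).

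By position on GRCm38 (GENCODE M21), the 10 genes are on 7 chromosomes, and all are protein-coding. Fosb and Zfp36 are on chromosome 7, at 19302696-19310051 and 28376784-28380253, and Junb, Jund and Ier2 on chromosome 8, at 84974484-84978718, 70698949-70700616 and 84661331-84662852. Fos is at 85473890-85477273 on chromosome 12, Jun at 95049034-95052222 on 4, Atf3 at 191170296-191218039 on 1, Ier3 at 35821684-35822923 on 17 and Egr1 at 34859823-34864984 on 18. Jun, Junb, Jund, Atf3 and Zfp36 each overlap a gene on the opposite strand (Junos, Prdx2, Gm11175, Gm24748 and Gm44710). How the counting treated strand is not given in the sources used here, and whether reads of these partners enter the counts of the 5 genes was not tested.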

How the data were processed

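Deposited values were raw counts of UMIs per gene and hashtag in each barcode of 1 pool, made by the authors with Cell Ranger: the file header names version 6.1.2, while the submitters' processing notes name 2.1.1 and GRCm38, and which holds is unresolved. The counts were not normalized before deposit. The members, lists and thresholds were chosen with earlier results of these data known.

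From the counts, levels in CPM (UMIs scaled to 1000000 gene UMIs) were computed with 95% exact Poisson intervals, and shares with 95% Clopper-Pearson intervals (Python 3.11.15, numpy 2.4.6, scipy 1.17.1, scikit-learn 1.9.0). A count of 0 was taken to allow up to 3 counts. Intervals cover counting error only. Cells are not replicates, so sizes stood in for tests: r of 0.2, variance or span of 2 times, genes of at least 20 CPM or in at least 5% of cells. Of the list genes, 2 were not matched. The correlation step and the hashtag calling were tested on simulated data. Promoters came from RefSeq by symbol.

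A hashtag counted as present above the 0.99 quantile of a negative binomial fitted to cells in which it was not among the 2 most abundant, without the top 2% of values. Exactly 2 hashtags, in a combination of at least 10 cells, made a pair. This calling rule was chosen after the hashtag data had been examined. A k-means rule, used in earlier work on these data, was tried first, and its cutoffs moved with how counts were scaled. About 12 settings were then looked at, and the one kept gave 18 pairs and a number of 2-hashtag cells close to that of the earlier work. The rule is thus not independent of the expected number of tumors. Barcodes left out as doublets ranged from 78 to 446 over 11 other settings, all of which are among the alternatives. The 1.5-fold sizes, the classes by Fos UMIs, the bands of depth and mitochondrial share, the motifs searched and the leaving out of HTO2 and HTO5 were also chosen after values had been seen.

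The genes named are the 10 members, the 12 highest and 6 lowest in r without mitochondrial and ribosomal protein genes, the 2 most like each member, and the 3 largest in absolute r of lists, with those called; of lists with none called only some are given. Other genes, such as single markers, were named after their values were seen.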

Additional observations from a re-analysis of the deposited data

Results flagged for a closer look

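Of the barcodes outside the cells used, 2 sets held signal of the 10 genes above that of the cells (1271 CPM). The 199 barcodes with a mitochondrial share above 15% were at 1831.4 CPM (1765 to 1900), with a median of 7106 UMIs and 25.7% mitochondrial UMIs. Cells used of 5000 to 20000 UMIs were at 1725 CPM (1661 to 1791), an interval that overlaps this one. The part of depth was not tested. The 266 barcodes with 3 or more hashtags were at 1367.5 CPM (1349 to 1386), and Jun made up much of the gap, at 320 CPM there against 262 CPM in cells.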

How the results depend on the processing

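Of 57 alternatives in cell filters, scaling, thinning and hashtag pairs, 52 were scored as keeping the value. Of 77 results under 11 other hashtag cutoffs, 72 were. For the summed level, ratios of summed levels and the median r, this meant staying within a measured spread or interval. No spread was measured for counts of members or genes, so a kept count says less. Members with a span of at least 2 times fell from 9 to 6 with pairs of at least 50 cells, which was scored as kept. So was the fall from 10 to 7 members by variance after thinning to 10000 UMIs. The span of the summed level over pairs, 2.84 times, moved under 8 alternatives: it was 1.9007 with pairs of at least 50 cells, 1.929 without HTO2 and HTO5, and 2.264 when the second hashtag had to be at least 5 times the next. Under other cutoffs it was 2.517, 2.0938 and 2.6104 with other background removals or quantiles, and 2.5284 and 2.359 with k-means and a background cluster picked on transformed values. Each of these 8 is lower than the value reported; of the 6 cutoffs that stayed within the interval, the highest was 2.911. The cause was not tested, apart from fewer pairs where small ones are left out. Scaled without mitochondrial and ribosomal protein genes, the summed level was 1770.5 CPM, since the total is smaller. Genes with r of at least 0.2 numbered 22 after thinning to 10000 UMIs, 21 of them among the 42, and 41 to 52 under other cutoffs. The median r between members, 0.211, was 0.154 after that thinning and 0.143 as Spearman's rho, and 0.189 to 0.221 over the 11 cutoffs. Members with a variance of at least 2 times the mean were 7 after that thinning, 9 with 3 or more hashtags kept, 9 with genes in at least 20% of cells, and 10 over the cutoffs. No paired analysis was possible because the 1 pool has no replicates. Depth limits Atf3 (646 UMIs in all) and single genes in small pairs most.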

Other observations

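Of the 42 genes with r of at least 0.2 with the score of the 10 genes, 19 were in none of the lists. Among them were 2 long noncoding RNAs that stay in the nucleus, Neat1 (r of 0.266, positive in 14 of 16 hashtag pairs) and Malat1 (0.211, 13 of 16), and 2 secreted factors, Inhba (0.269, 14 of 16), a subunit of activin, and Il11 (0.205, 14 of 16). These 4 were picked after their values were seen.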
